A study of Mus musculus with 8 samples.

Results

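Neogenin, its repulsive guidance molecule (RGM) and netrin ligands, and the related receptors Dcc, Unc5b, and Unc5c were followed in colonic epithelial cells of mice colonized with 1 of 2 strains of B. theta. The genes are Neo1, Rgma, Rgmb, Ntn1, Ntn4, Unc5b, Unc5c, and Dcc. All probe sets whose array annotation names 1 gene symbol, and that symbol one of these 8, were taken, which gave 23 of the 45037 probe sets compared, for 8 of the 18193 genes named in this way. The family was chosen on the difference between the groups described here: Neo1 is among the genes that the study listed as higher in BTWT-colonized mice on these same arrays, and the other genes were added as its ligands and relatives. The differences between groups of all 23 probe sets are therefore given as a description. Counts of those past a threshold stand beside the share of all probe sets and are no independent test of the family.

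The mice were male C57BL/6 animals kept under specific pathogen-free conditions and given metronidazole and ciprofloxacin, so that the community left by the antibiotics was present in every animal (SPF-Abx mice). After the antibiotics, 4 mice received the wild-type strain (BTWT) and 4 received the strain without the MAFF locus (BTΔMAFF, spelled BTDMAFF in the labels), a pair of neighbouring bacterial genes from a locus for polysaccharide use. Colonization was done at an age of 8 wk, and colons were taken from 12-wk-old mice after 4 wk with the strain. Living EpCAM+ CD45- colonic cells were sorted, and 1 Affymetrix mouse array was hybridized with amplified material for each mouse. There was no uncolonized group among the 8 arrays.

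Neogenin is a transmembrane receptor of the immunoglobulin superfamily, related to Dcc, that binds both netrins and RGMs. Netrins are secreted, laminin-related proteins that guide axons and also act in epithelia, where netrin-4 is found in basement membranes. RGMs are anchored to the cell surface by a lipid, bind neogenin, and also serve as co-receptors for bone morphogenetic proteins (BMPs), which pattern the crypt. Dcc, Unc5 receptors, and neogenin are known as dependence receptors, which can signal cell death when no ligand is bound.

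The deposited values are log2 values from which the median of the 8 arrays was subtracted for each probe set. They hold differences between mice and no level, so neither abundance nor detection of a gene can be read from them, and no gene's level is compared with that of another. The median of all probe sets per array lay between -0.030 and 0.041 on this scale. A first principal component with 29.4% of the variance set the arrays of BTWT replicate 2 and BTΔMAFF replicate 4 apart, and differences without both are given where they change a direction. In sorted cells measured in bulk, fewer cells of a type and less RNA per cell cannot be told apart. Nothing in the labels says whether mice of a group shared a cage, so the spread between mice may contain a cage effect.

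Neo1 was the family member with the largest differences between groups. Of its 5 probe sets, all had a higher mean in BTWT (4 after each array was centred on its median), and 2 had a fold change over 2. These were 1440789_at at 2.64-fold and 1444295_at at 2.60-fold. The nearest probe sets below that limit were 1434931_at at 1.47-fold and 1447693_s_at at 1.40-fold. The fifth, 1447694_x_at, hardly varied between mice.

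The Neo1 probe set 1444295_at was at 0.61, 0.76, 0.71, and 0.53 in BTWT replicates 1 to 4, and at -1.11, -0.67, -0.53, and -0.60 in BTΔMAFF replicates 1 to 4. The BTWT mice lay close together, and the lowest of them was 1.06 above the highest BTΔMAFF mouse on the log2 scale. The group means were 0.65 ± 0.10 (SD, n = 4 mice) and -0.73 ± 0.26 (SD, n = 4), a log2 difference of 1.38 (standard error 0.13).

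The Neo1 probe set 1440789_at was at 0.40, 1.10, 0.61, and 0.33 in BTWT replicates 1 to 4 and at -1.25, -0.33, -0.89, and -0.69 in BTΔMAFF replicates 1 to 4. The groups were again separate, with a gap of 0.65, although the mice within a group were farther apart than for 1444295_at. The means were 0.61 ± 0.35 (SD, n = 4) and -0.79 ± 0.39 (SD, n = 4), and the log2 difference was 1.40 (standard error 0.24).

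The Neo1 probe set 1434931_at was at 0.52, 0.24, 0.03, and 0.54 in BTWT and at -0.23, -0.29, -0.03, and -0.33 in BTΔMAFF. Its groups did not overlap, but the gap was only 0.064, between replicate 3 of either group. The log2 difference was 0.56 (standard error 0.13). The Neo1 probe set 1447693_s_at was at 0.38, 0.18, -0.06, and 0.41 in BTWT and at -0.48, -0.34, -0.27, and 0.06 in BTΔMAFF. Here BTΔMAFF replicate 4 lay above BTWT replicate 3, so the groups overlapped, and the log2 difference was 0.49 (standard error 0.15). The suffix s marks a probe set that Affymetrix designed to fit more than 1 transcript.

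**Figure D1:**
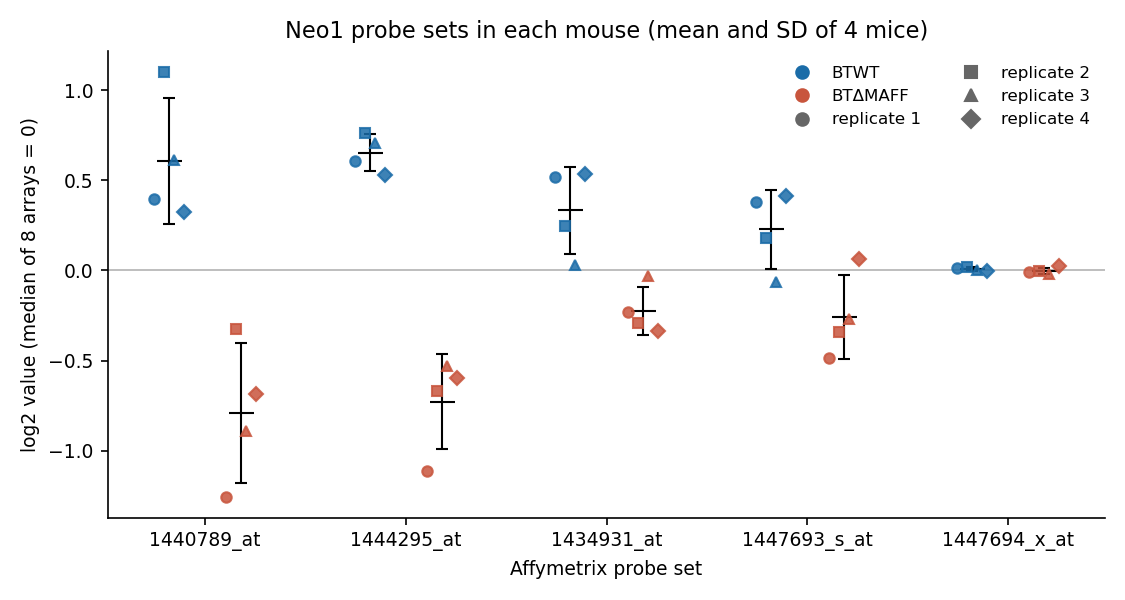
Deposited log2 values (y axis, median of the 8 arrays set to 0) of the 5 Neo1 probe sets (x axis) in each mouse, BTWT in blue and BTΔMAFF in red, with a symbol for each replicate and the mean and SD of 4 mice as bars. The groups are separate for 1440789_at, 1444295_at, and, by 0.064, for 1434931_at, they overlap for 1447693_s_at, and 1447694_x_at stays near 0 in every mouse.

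The order of the mice within a group differed among the Neo1 probe sets. In 1440789_at and 1444295_at, the BTWT mice ran from replicate 2, the highest, through 3 and 1 to 4. In 1434931_at and 1447693_s_at they ran from replicate 4 through 1 and 2 to 3, so that BTWT replicate 4 was the lowest BTWT mouse in the former and the highest in the latter. The BTΔMAFF mice did not share this division. Replicate 1 was the lowest BTΔMAFF mouse in 3 of the 4 probe sets that varied and second highest in 1434931_at. Replicate 4 was the lowest BTΔMAFF mouse in 1434931_at and the highest in 1447693_s_at. Which parts of the Neo1 transcript each probe set measures is not given in the tables used here, and no fold change can therefore be assigned to a form of the transcript.

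With 1 array left out in turn, the Neo1 log2 difference ran from 1.25 to 1.44 for 1444295_at, from 1.24 to 1.55 for 1440789_at, from 0.49 to 0.66 for 1434931_at, and from 0.41 to 0.59 for 1447693_s_at. Without both arrays that stood apart it was 1.39, 1.27, 0.55, and 0.61 in the same order. The groups of 1444295_at, 1440789_at, and 1434931_at did not overlap, so leaving out an array could not have changed their sign. The sign of 1447693_s_at, whose groups overlapped, also stayed the same.

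Across the 8 genes, 17 of the 23 probe sets had a higher mean in BTWT, as had 69.9% of all probe sets. After each array was centred on its median the count was 12 of 23, beside 51.1% of all probe sets. When thresholds of the study were applied (more than 2-fold, with p below 0.05 before adjustment), 2 probe sets were called higher, both of Neo1, and 0 were called lower, beside 0.262% and 0.286% of all probe sets. Of the 23, 3 had groups that did not overlap, again all of Neo1, where 2.83% of all probe sets had groups without overlap. These shares include the contrast by which Neo1 was chosen. No probe set of the other 7 genes met either condition. After Benjamini-Hochberg adjustment over the 45037 probe sets, limma called 0 of the 23, as it called 0 of all probe sets (2295 had an unadjusted p under 0.05, and the methods' t-test also called 0 after adjustment).

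**Figure D2:**
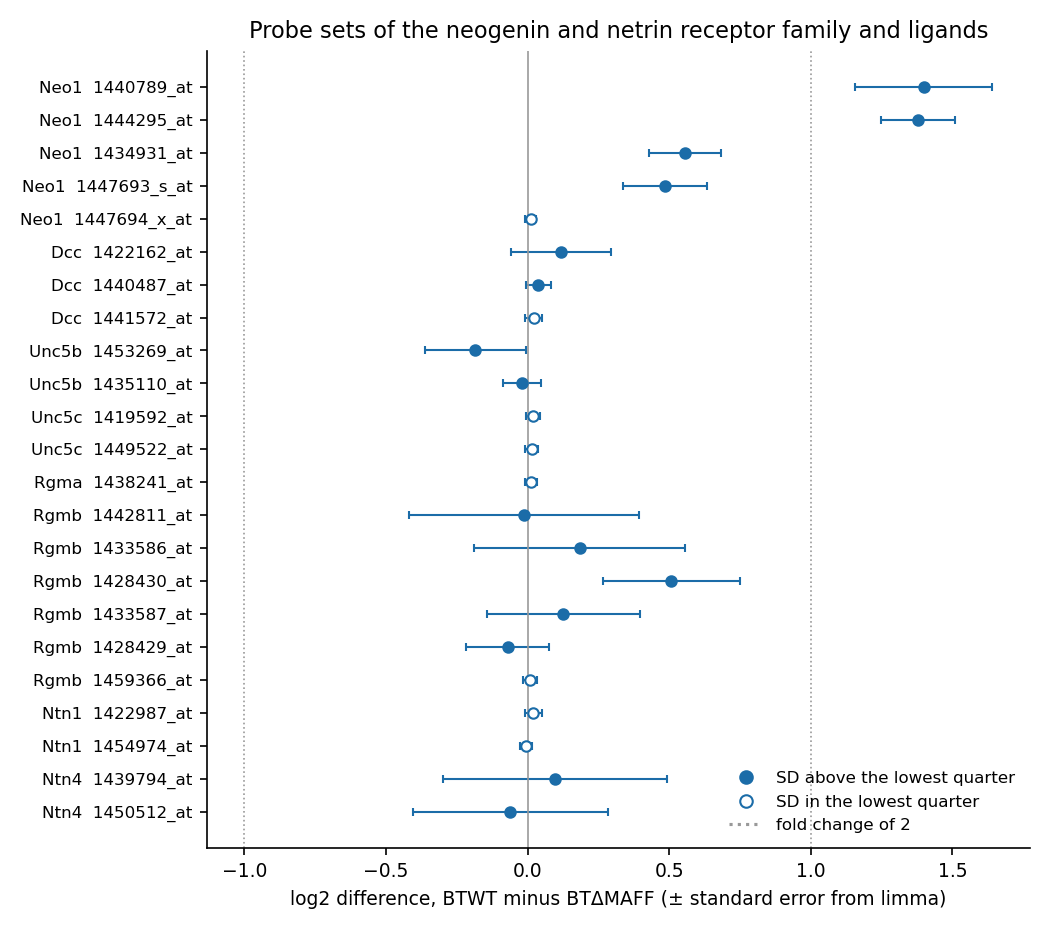
Log2 difference between BTWT and BTΔMAFF (x axis, with the standard error from limma) for each of the 23 probe sets (y axis), ordered by gene. Filled points are probe sets whose SD over the 8 arrays lies above the lowest 25% of all probe sets, open points are the 8 within it, and dotted lines mark a fold change of 2. The 2 points beyond the dotted line on the right belong to Neo1, and the open points sit at 0.

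Rgmb, the RGM also called Dragon and a BMP co-receptor, varied widely among mice of the same group, and its 6 probe sets did not have 1 direction. Of these, 4 had a higher and 2 a lower mean in BTWT (3 and 3 after centring of arrays), from -0.07 for 1428429_at to 0.51 for 1428430_at. The groups overlapped in each of them. Except for 1459366_at, the probe sets had an SD over the 8 arrays between 0.21 and 0.58, where the median SD of all probe sets was 0.132.

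The Rgmb probe set 1433586_at was at 1.33, -0.16, 0.04, and -0.04 in BTWT replicates 1 to 4 and at 0.37, -0.23, -0.25, and 0.53 in BTΔMAFF replicates 1 to 4. A single BTWT mouse, replicate 1, lay far above the other 3. The log2 difference was 0.18 (standard error 0.37), and without BTWT replicate 1 it was -0.16. The Rgmb probe set 1428430_at was at 0.86, -0.05, 0.05, and 0.09 in BTWT and at 0.13, -0.17, -0.55, and -0.49 in BTΔMAFF. BTΔMAFF replicate 1 lay above 3 of the BTWT mice. The log2 difference of 0.51 (standard error 0.24) was the largest of the ligands, and it was 0.30 without BTWT replicate 1.

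In the Rgmb probe set 1442811_at, mice of both groups were far apart, from -0.51 in BTWT replicate 2 to 0.47 in BTWT replicate 3 and from -0.79 in BTΔMAFF replicate 3 to 1.09 in BTΔMAFF replicate 4. Its log2 difference was -0.01 (standard error 0.41), with 0.34 when BTΔMAFF replicate 4 was left out and -0.29 when BTΔMAFF replicate 3 was. In the Rgmb probe set 1433587_at, the highest values were 0.57 in BTWT replicate 1 and 0.60 in BTΔMAFF replicate 4, and the log2 difference was 0.13 (standard error 0.27), which became -0.02 without BTWT replicate 1. The Rgmb probe set 1428429_at had the narrowest range of these, from -0.21 in BTΔMAFF replicate 3 to 0.41 in BTΔMAFF replicate 4, and a log2 difference of -0.07 (standard error 0.15) that was 0.05 without BTΔMAFF replicate 4.

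The probe sets of Rgmb nonetheless ordered the BTΔMAFF mice alike. Of the 5 that varied, 5 had BTΔMAFF replicate 3 as the lowest BTΔMAFF mouse and 4 had BTΔMAFF replicate 4 as the highest. BTWT replicate 1 was the highest BTWT mouse in 3 of the 5. Without both arrays that stood apart, one of which is BTΔMAFF replicate 4, the 5 log2 differences were all above 0, between 0.084 and 0.53, so that the lower means of 1442811_at and 1428429_at rested on those arrays.

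**Figure D3:**
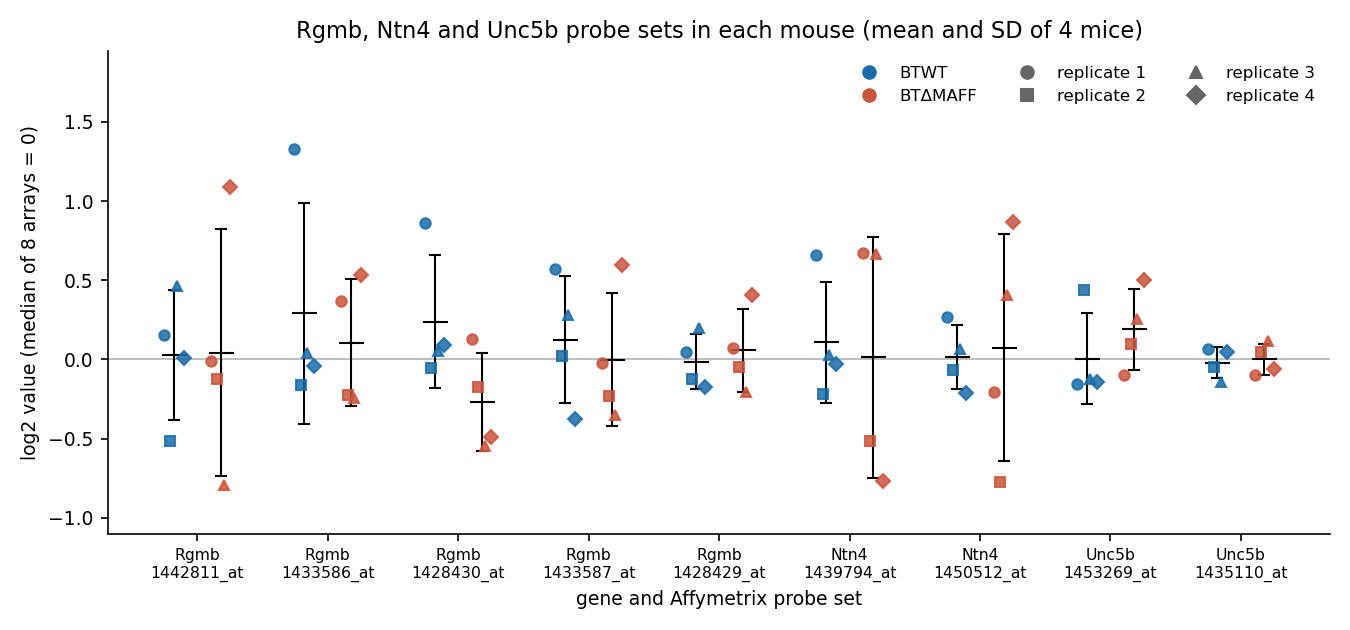
Deposited log2 values (y axis, median of the 8 arrays set to 0) of the Rgmb, Ntn4, and Unc5b probe sets whose SD lies above the lowest 25% (x axis), in each mouse, BTWT in blue and BTΔMAFF in red, with a symbol for each replicate and the mean and SD of 4 mice as bars. The groups overlap in every probe set shown, and single mice such as BTWT replicate 1 and BTΔMAFF replicate 4 of Rgmb lie far from the rest of their group.

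Rgma, the other RGM ligand among the genes followed here, has 1 probe set, 1438241_at, with values between -0.022 and 0.032 in all 8 mice. Its log2 difference was 0.012 (standard error 0.022), and its SD over the arrays was at percentile 2.5 of all probe sets. No difference in Rgma between the groups was measurable on this probe set.

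Ntn4, which encodes the netrin of basement membranes, had the widest spread of the netrins. The Ntn4 probe set 1439794_at was at 0.66, -0.22, 0.03, and -0.03 in BTWT replicates 1 to 4 and at 0.67, -0.52, 0.67, and -0.77 in BTΔMAFF replicates 1 to 4. The BTΔMAFF mice divided into a high and a low pair that enclosed all BTWT values. The log2 difference was 0.10 (standard error 0.39), between -0.16 (without BTΔMAFF replicate 4) and 0.32 (without BTΔMAFF replicate 1) with 1 array left out and -0.05 without both arrays that stood apart.

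The Ntn4 probe set 1450512_at was at 0.27, -0.07, 0.07, and -0.21 in BTWT and at -0.20, -0.77, 0.41, and 0.87 in BTΔMAFF. The BTΔMAFF mice again lay on both sides of the BTWT mice, but replicate 4, the lowest for 1439794_at, was now the highest. The log2 difference was -0.06 (standard error 0.34), between -0.34 (without BTΔMAFF replicate 2) and 0.20 (without BTΔMAFF replicate 4) with 1 array left out and 0.23 without both arrays that stood apart. For BTΔMAFF, the SD of 4 mice was 0.76 and 0.72 in these Ntn4 probe sets, against 0.38 and 0.20 for BTWT, and no difference in spread was tested.

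Ntn1, which encodes netrin-1, the best studied guidance netrin, has probe sets 1422987_at and 1454974_at. Their values stayed between -0.033 and 0.058 in every mouse, with log2 differences of 0.021 (standard error 0.029) and -0.0063 (standard error 0.022). No direction for Ntn1 can be read from values of this size.

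Among the receptors other than neogenin, Unc5b, a netrin receptor with an intracellular death domain, was the only one whose probe sets both had a lower mean in BTWT. The Unc5b probe set 1453269_at was at -0.15, 0.44, -0.12, and -0.14 in BTWT replicates 1 to 4 and at -0.10, 0.10, 0.26, and 0.50 in BTΔMAFF replicates 1 to 4. BTWT replicate 2 lay with the highest BTΔMAFF mice, and the other 3 BTWT mice lay below all BTΔMAFF mice. The log2 difference was -0.18 (standard error 0.18), from -0.33 without BTWT replicate 2 to -0.08 without BTΔMAFF replicate 4. These are the arrays that stood apart. The Unc5b probe set 1435110_at ranged from -0.14 to 0.11 with a log2 difference of -0.02 (standard error 0.066), which was 0.021 without BTWT replicate 3.

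Dcc, the netrin receptor for which axon attraction is best known, has 3 probe sets. The Dcc probe set 1422162_at was at 0.02, 0.19, 0.36, and -0.07 in BTWT replicates 1 to 4 and at -0.14, -0.29, -0.02, and 0.47 in BTΔMAFF replicates 1 to 4. The highest mouse was BTΔMAFF replicate 4, and the groups overlapped over most of their range. The log2 difference was 0.12 (standard error 0.18). With 1 array left out it was between 0.020 (without BTΔMAFF replicate 2) and 0.27 (without BTΔMAFF replicate 4). The Dcc probe sets 1440487_at and 1441572_at had log2 differences of 0.037 (standard error 0.044) and 0.022 (standard error 0.030). For Unc5c, the second Unc5 receptor, the probe sets 1419592_at and 1449522_at had log2 differences of 0.018 (standard error 0.025) and 0.015 (standard error 0.023), with every mouse between -0.030 and 0.043.

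The probe sets that hardly varied shared 1 pattern over the mice. Of the 23, 8 lay in the lowest 25% of SD over all probe sets, at an SD of at most 0.0374, and these were all probe sets of Rgma, Ntn1, and Unc5c and 1 each of Neo1, Dcc, and Rgmb. In 6 of the 8, the mice stood in the same order as the medians of their arrays, from replicate 2 through 1 and 3 to 4 in BTWT and from replicate 4 through 2 and 1 to 3 in BTΔMAFF. The Unc5c probe set 1419592_at differed from the array medians by a root mean square of 0.0016 over the 8 arrays, and the largest such distance among the 8 was 0.020, for the Ntn1 probe set 1454974_at. The array medians themselves differed by 0.018 between the groups, and the log2 differences of the 8 probe sets lay between -0.0063 and 0.022. These differences did not exceed the shift of whole arrays by more than 0.0039 in the direction of BTWT. After each array was centred on its median, the Rgma difference was -0.0058 and that of Neo1 1447694_x_at was -0.0075. The 17 higher means counted above include 7 of these 8 probe sets.

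**Figure D4:**
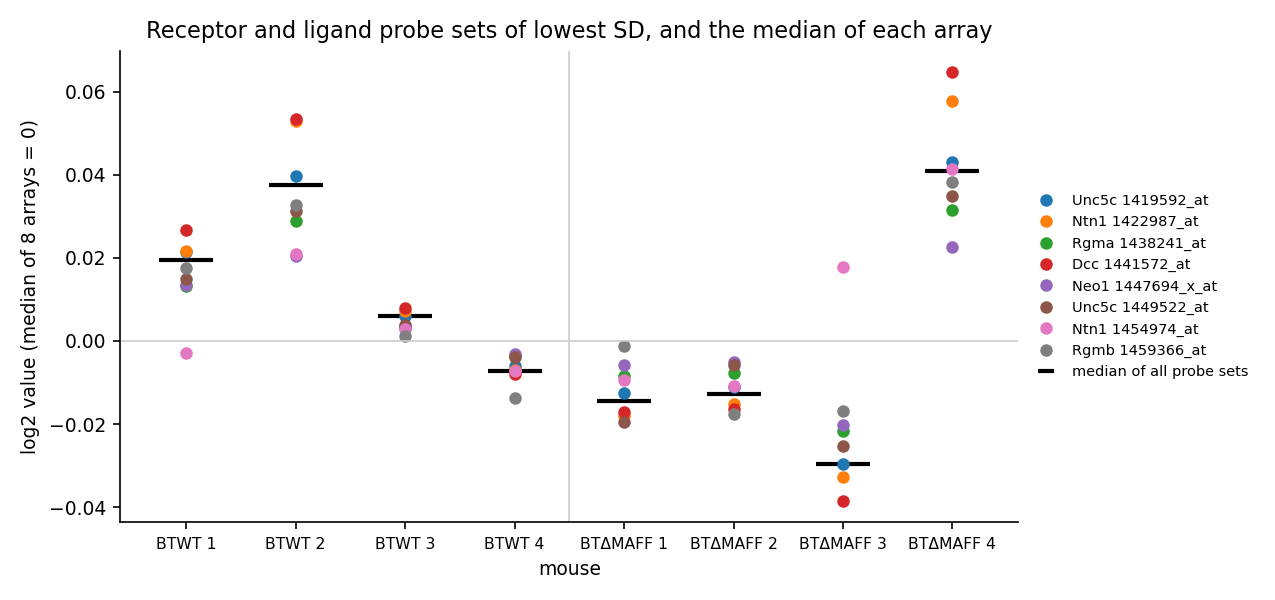
Deposited log2 values (y axis, median of the 8 arrays set to 0) of the 8 receptor and ligand probe sets of lowest SD (colored points) in each mouse (x axis), with the median of all probe sets of that array as a black bar. Most points follow the bar from mouse to mouse within a range of -0.039 to 0.065, a far smaller range than that of the other Neo1 probe sets.

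The other genes of the pathway were taken from lists of 85 genes, of which 79 were found with 199 probe sets. The remaining genes were not analysed here. Before adjustment, at a limma p below 0.05, 9 of the 199 probe sets were higher in BTWT and 7 were lower, or 4.52% and 3.52%, where 2.24% and 2.86% of all probe sets were. The median log2 difference was 0.020, against 0.018 (0.0185) for all probe sets. None of the 199 passed after adjustment over all probe sets. The count of higher probe sets was 18 without both arrays that stood apart and 19 without BTΔMAFF replicate 4, and the count of lower ones was 1 without BTWT replicate 4, 3 without BTWT replicate 1, 4 without BTWT replicate 3, and 4 without BTΔMAFF replicate 2.

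Of these 9 higher probe sets, 8 belonged to the effectors that link netrin and neogenin receptors to the actin cytoskeleton, a list of 27 genes with 78 probe sets of which 3 were lower. The 8 came from 4 genes. Nck1, an SH2 and SH3 adaptor that binds the cytoplasmic tail of Dcc, had all 3 probe sets higher at that threshold, with log2 differences of 0.42 (standard error 0.075), 0.74 (standard error 0.26), and 0.60 (standard error 0.22). For 1421487_a_at, Nck1 was between 0.11 and 0.25 in BTWT and between -0.43 and -0.11 in BTΔMAFF, without overlap. In the other Nck1 probe sets 1 or more mice crossed between the groups.

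Nck2, the paralog of Nck1, had 2 of 3 probe sets higher, and the remaining one, 1416797_at, had a log2 difference of -0.04 (standard error 0.25). The Nck2 probe set 1429481_at was at -0.08, 1.23, 0.62, and 0.65 in BTWT and at -1.26, -1.16, -0.23, and 0.08 in BTΔMAFF, a 2.38-fold difference in which BTWT replicate 1 lay below BTΔMAFF replicate 4. The study's own table pairs this probe set with a second locus as well. The Nck2 probe set 1416796_at had a log2 difference of 0.27 (standard error 0.071) with separate groups.

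Ablim1, an actin-binding LIM protein whose relative in worms acts in netrin-dependent axon guidance, had a higher mean in all 4 of its probe sets, of which 2 passed the unadjusted threshold. The Ablim1 probe set 1442376_at was at 0.30, 1.45, 0.63, and 0.79 in BTWT and at -1.56, -0.67, -0.39, and -0.30 in BTΔMAFF, with no overlap and a log2 difference of 1.52 (standard error 0.35). The second, 1454708_at, had a difference of 0.38 (standard error 0.11), also without overlap, and the other Ablim1 probe sets had differences of 0.23 and 0.29. Ablim1 1442376_at and Nck2 1429481_at are among the probe sets that the study listed as higher on these arrays, so their direction is not independent of that choice. Wasl, which encodes the actin nucleation promoter N-WASP, was higher in 1432155_at at 0.58 (standard error 0.20), but its other 3 probe sets had log2 differences of -0.19, -0.18, and 0.02 that did not pass.

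The lower effectors were Pitpna, a phosphatidylinositol transfer protein that binds netrin receptors, at -0.32 (standard error 0.11, 1423283_at), Evl, an actin regulator of the Ena/VASP family, at -0.42 (1440885_at), and Prkca, a protein kinase C, at -0.45 (1427562_a_at). Every other probe set of these 3 genes also had a lower mean in BTWT. None of these genes had a fold change over 2.

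**Figure D5:**
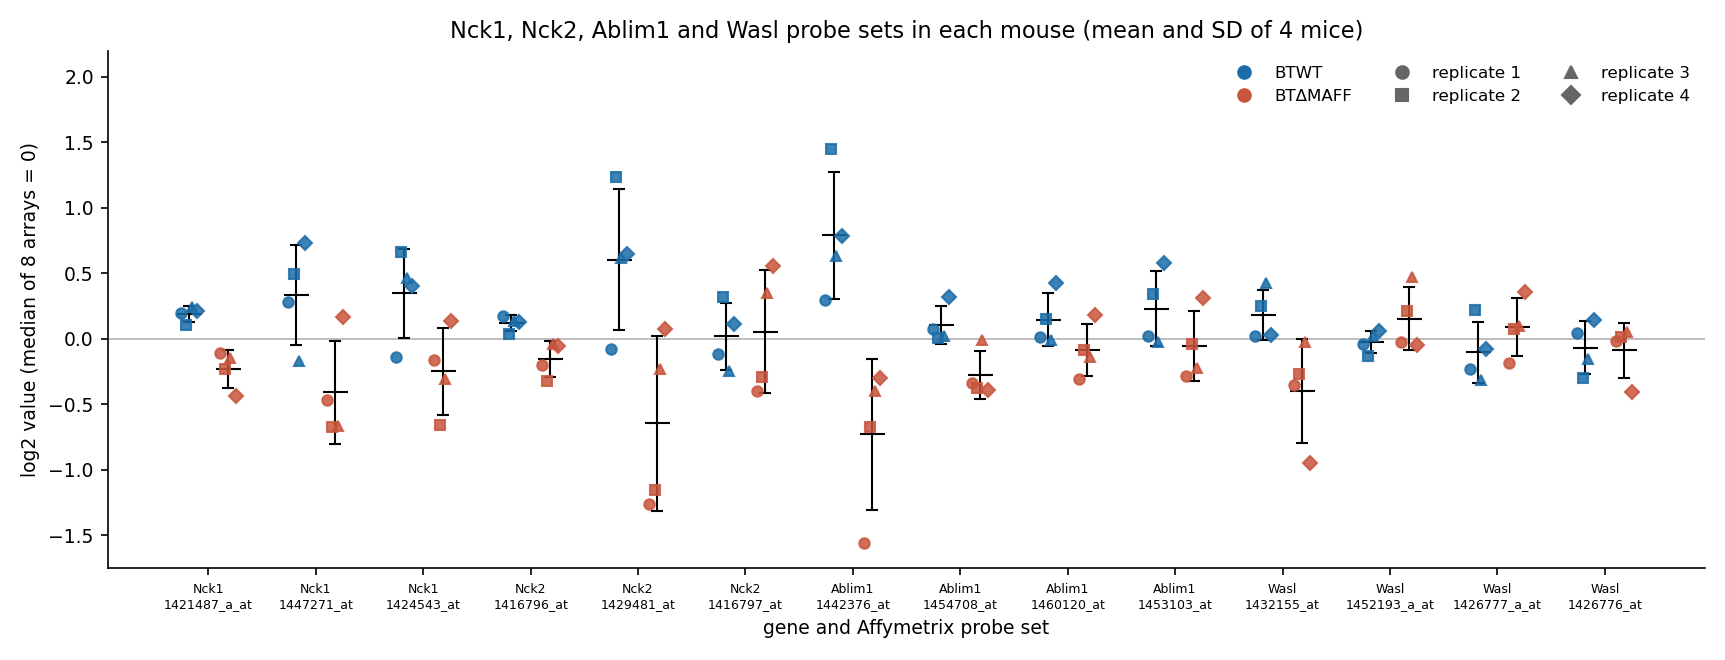
Deposited log2 values (y axis, median of the 8 arrays set to 0) of all probe sets of Nck1, Nck2, Ablim1, and Wasl (x axis) in each mouse, BTWT in blue and BTΔMAFF in red, with a symbol for each replicate and the mean and SD of 4 mice as bars. All 3 Nck1 and all 4 Ablim1 probe sets have a higher mean in BTWT, whereas the Nck2 and Wasl probe sets differ in direction among themselves.

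Over all probe sets, 2.24% were higher and 2.86% were lower at the same unadjusted threshold. In the BMP arm, 24 genes with 51 probe sets, 0 probe sets passed it upward and 1 passed it downward. The 1 was Id1, a transcriptional target of BMP signaling, at -0.36 (standard error 0.14), with overlapping groups. Smad1, which carries the BMP signal to the nucleus, had log2 differences of 0.33, 0.18, and 0.05 on its 3 probe sets and did not pass. Of 27 probe sets for other ligands and receptors of the family, such as Unc5a and Flrt3, a ligand of Unc5 receptors, 0 passed in either direction and 18 lay in the lowest 25% of SD. Unc5a had the smallest p among them, with a log2 difference of -0.09 (standard error 0.057), and Flrt3 had log2 differences of 0.38 and -0.14 on its probe sets.

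The shares of all probe sets past this threshold, 2.24% higher and 2.86% lower, also stand beside the counts given next. Among 22 probe sets for the proteases that cleave neogenin and RGMs and their partners, 0 were higher and 2 were lower. These were Aph1a, a subunit of gamma-secretase, at -0.41 (standard error 0.13), and Lmo4, a transcriptional partner of the released neogenin domain, at -0.73 (standard error 0.31). The other Aph1a probe sets had log2 differences of -0.71 and -0.35. In the death arm of the dependence receptors, 1 of 21 probe sets was higher and 1 was lower. Cip2a, an inhibitor of protein phosphatase 2A, was higher at 0.63 (standard error 0.17) on 1 of its 2 probe sets, and Casp9, an initiator caspase, was lower at -0.38 (standard error 0.13) on 1 of its 3.

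The genes whose pattern over the 8 arrays lay nearest to Neo1 were found by the root mean square difference of the deposited log2 values, among probe sets with 1 gene symbol. For 1440789_at, the Neo1 probe set of largest SD, they were Gfpt1 (0.28), an enzyme of hexosamine synthesis, Snx5 (0.31), a sorting nexin, Trpm6 (0.32), a magnesium channel, Tbc1d9 (0.34), and Ablim1 (0.35, 1442376_at). For comparison, 1444295_at of Neo1 itself was at 0.25. The Neo1 probe sets 1447693_s_at, 1434931_at, and 1447694_x_at were farther away than these genes, at 0.60, 0.62, and 0.77. For the mean of all Neo1 probe sets they were Acsl3 (0.12), a fatty acid activating enzyme, Lcorl (0.12), Tlr4 (0.13), the receptor of lipopolysaccharide, Uhrf1bp1l (0.15), and Tpp1 (0.15), a lysosomal peptidase. Since Neo1 was chosen for its difference between groups, genes near it had to differ the same way, and their log2 differences of 1.12 to 1.52 and 0.59 to 0.83 are no further observation.

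Markers of other cells were examined beside these values. At an unadjusted limma p under 0.05, 2.24% of all probe sets were higher in BTWT and 2.86% were lower. In the epithelial list of 8 genes, 4 of 12 probe sets were lower in BTWT at that threshold and 0 were higher. The largest of these 4 differences were in Vil1 at -0.40 and Krt20 at -0.32. Epcam, the marker used for sorting, did not pass at -0.037 and 0.10, nor did Cdh1 at 0.11. Cdx2 at -0.19 and -0.039 and Krt18 at -0.10 did not pass either. The list's mean lay between -0.123 and 0.007 in BTWT and between 0.028 and 0.119 in BTΔMAFF, so the groups were separate for it, as they were for 3 of the 5 Neo1 probe sets, in the opposite direction. The list of crypt base and cycling cells ranged from -0.017 to 0.462 in BTWT and from -0.311 to 0.283 in BTΔMAFF. Of its 13 probe sets, 2 were higher, Top2a 1454694_a_at at 1.02 and Mki67 at 0.60. The other Top2a probe sets were at -0.050 and 0.013, and those of Lgr5 at -0.12 and 0.015. Axin2, Smoc2, and Ascl2 had a higher mean in BTWT on every probe set and did not pass. Of the goblet cell list, 2 of 8 probe sets were higher, both of Agr2, and 3 were lower, of Fcgbp and Clca1. Of the surface colonocyte list, 1 of 9 was higher, of Ceacam20, and 3 were lower, all of Slc26a3, and of the enteroendocrine list 0 of 6 passed. The tuft cell list lay between 0.012 and 0.279 in BTWT and between -0.117 and 0.022 in BTΔMAFF, with 1 of 14 probe sets higher, of Trpm5 at 0.46. The part of these cell types in the Neo1 difference was not tested.

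Stromal, neural, and blood cells, in which netrins and their receptors are also known, were examined in the same way and beside the same shares. The fibroblast list ranged from -0.151 to 0.247 in BTWT and from -0.062 to 0.435 in BTΔMAFF, with 1 of 15 probe sets higher, of Pdgfrb at 1.16 (1436970_a_at), which is also among the probe sets the study listed. The other Pdgfrb probe set, 1417148_at, had a log2 difference of -0.00040, and Col3a1 at -1.14, Dcn at -1.03, and Col1a1 at -0.77 had lower means in BTWT on 1 probe set each and did not pass. In the lists of smooth muscle, endothelium, enteric neurons and glia, and leukocytes, 0 of 10, 8, 12, and 8 probe sets passed an unadjusted p of 0.05, and the group ranges overlapped. Of the leukocyte probe sets, 7 of 8 lay in the lowest 25% of SD. Whether any of these markers is at background cannot be read from centred values. The part of stromal cells in the values of Ntn4 and Rgmb was not tested. As a measure related to RNA integrity, the 3-prime signal of a control gene less its 5-prime signal was taken for each array. Both signals are centred values, so the difference compares arrays with each other and gives no integrity of an array by itself. For Gapdh it ranged from -0.253 to 0.018 in BTWT and from -0.178 to 0.171 in BTΔMAFF. For actin the same measure ranged from -0.062 to -0.017 in BTWT and was -0.035, 0.083, 0.035, and 0.055 in BTΔMAFF replicates 1 to 4, so that 3 of 4 BTΔMAFF arrays lay above every BTWT array. The part of RNA integrity in the values was not tested.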

How the data were processed

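Colonic epithelial cells of 8 mice were measured, 4 colonized with BTWT and 4 with BTΔMAFF, and each array was assigned to its group and replicate by its label. What the authors deposited are log2 values of 45101 probe sets, each centred so that its median over all 8 arrays is 0. Affymetrix Expression Console (submitters' processing notes, no version) and GeneSpring (methods) are named, and for background correction, summarization, and normalization no method is stated (not given in the sources used here). All 64 Affymetrix controls were left out.

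For the other 45037 probe sets, BTWT and BTΔMAFF were compared without covariates by the lmFit and eBayes functions of limma (version 3.58.1, R 4.3.3), and p-values were adjusted by Benjamini-Hochberg. Probe sets with 1 symbol in the array annotation (34945) were named, 932 with several and 9160 with none were not. No level was available, so a low-SD filter (lowest 25%) was used in place of a filter on dim probe sets. The family and the gene lists were chosen with earlier results of these data known. Named genes are the 8 members, pathway genes past both thresholds (2-fold, unadjusted p 0.05) and the 2 of smallest p per list, the 5 genes nearest to each of 2 Neo1 profiles, and the markers that describe a list. Further genes, chosen after their values were seen, are Pitpna, Evl, Prkca, and Wasl. The procedure was run on simulated data with independent noise for each probe set, so noise that probe sets share was not covered. Alternatives were quantile normalization, centring of arrays, array weights, a replicate block, leaving out arrays, the methods' t-test, unlogged means, the SD filter, and a robust prior. Precision is limited by the number of arrays. Protein sequences and probe positions were not used here, and some listed genes are not reported here.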

Additional observations from a re-analysis of the deposited data

Results flagged for a closer look

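A gap test was run on the 4 mice of a group for each of the 23 probe sets, 46 groups in all, and 3 groups held a mouse whose distance from the nearest other mouse took up more of the group's range than Dixon's 95% critical value. By chance about 1 group in 20 is marked in this way. For Rgmb, BTWT replicate 1 was marked in 1433586_at, at 1.33 against -0.164 to 0.039 in the other BTWT mice (share of the range 0.864), and in 1428430_at, at 0.865 against -0.052 to 0.089 (0.845). For Unc5b, BTWT replicate 2 was marked in 1453269_at, at 0.438 against -0.153 to -0.121 (0.946), and this mouse's array is one of those that stood apart.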

How the results depend on the processing

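Of the recalculated log2 differences of the 23 probe sets, 316 moved by less than the SD within groups and 6 by more. The 316 include those of the replicate block, which cannot change a difference between groups with the same replicate numbers. They also include changes of direction where mice vary widely, such as Rgmb 1442811_at, from -0.01 to 0.48 with array weights. Among Neo1 probe sets, those 6 include only 1447694_x_at, at -0.011 after quantile normalization and -0.0075 after each array was centred on its median. With array weights, Ntn4 1450512_at turned from -0.06 to 0.54 and Dcc 1422162_at moved from 0.12 to 0.44. After quantile normalization, Rgma was at -0.0084 and Ntn1 1454974_at at -0.028. The Neo1 probe sets past both thresholds numbered 2 under every alternative run. Over all probe sets past both thresholds, array weights gave 274 higher and 402 lower, against 118 and 129, and leaving out 1 array gave 119 to 204 lower, the most without BTΔMAFF replicate 4. Past the adjusted threshold there were 510 with array weights, which were 4.68 and 4.36 for BTWT replicate 3 and BTΔMAFF replicate 2 and at most 1.33 for the others, and 0 to 6 with 1 array left out (6 without BTΔMAFF replicate 4, 2 without BTWT replicate 2, and 1 without BTWT replicate 3). Of the pathway probe sets, 18 were higher without both arrays that stood apart, 15 with the replicate block, and 7 to 19 with 1 array left out, and 1 to 9 were lower with 1 array left out. Deviations from the group means correlated at 0.392, -0.04, 0.033, and -0.266 over probe sets for replicates 1 to 4, and only replicate 1 correlated best with its own number, so the numbers were not taken to pair mice, and the replicate block moved no other count of calls by over 1.5 times. The cause of these changes was not tested.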
